A study of Mus musculus with 16 samples.

Results

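Arterial and arteriolar endothelial cells (ECs) were picked from single-cell RNA-sequencing of mouse kidneys by 5 of their transcripts. A barcode was a member when it had 200 to 7000 detected genes, at most 20% mitochondrial UMIs (unique molecular identifiers, the counted molecules), at least 1 UMI of Pecam1 or Cdh5, and at least 3 UMIs over Sox17, Gja5, Gja4, Fbln2 and Bmx with at least 2 of these 5 genes detected. It also had to hold 0 UMIs of Ehd3 (glomerular ECs), Plvap (peritubular and venous ECs), Ptprc (leukocytes), Cubn and Epcam (tubules). The rule found 1036 members among 116439 barcodes, which was 1.95% of the 53253 barcodes within the gene and mitochondrial limits and 10.6% of their 9775 endothelial barcodes.

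The study asked which kidney cells change in diabetic nephropathy (DN). DN mice were BTBR ob/ob, homozygous for a leptin mutation that makes them obese and diabetic, and control mice were BTBR +/+ without it. According to the study's methods both genotypes also carried a red-to-green fluorescent reporter at the ROSA26 locus and a Cre transgene driven by a podocyte-specific promoter, so the control mice were reporter mice and not plain BTBR mice. Each genotype was sampled at 6 weeks, which the study called onset, and at 12 weeks, which it called early DN, with 2 female and 2 male mice each time, with both kidneys of 1 mouse in each of the 16 libraries. The renal papilla was removed, and a Percoll gradient depleted proximal tubules to enrich glomeruli, so arteries and arterioles reached the suspension only as far as they went through that enrichment.

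Arterial ECs line the vessels that carry blood at high pressure to the glomeruli. They hold the elastic lamina under them with secreted matrix, set vessel tone through endothelin and nitric oxide, and connect to each other and to the muscle by gap junctions. Notch signalling and the transcription factor Sox17 are known to keep arterial identity. In the kidney the afferent arterioles end at the glomerulus beside the renin cells, so a suspension made for glomeruli carries the last stretch of this tree.

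Members numbered 6 to 132 per library and held 5851643 UMIs in all, with a median of 3688 UMIs, 1784 detected genes and 4.76% mitochondrial UMIs per member. Libraries with replicate number 1 held 776 members and those with number 2 held 260. The libraries fell into 2 sets by the barcodes they shared. In the smaller set, which was replicate 1 of each of the 4 female groups, the members' median depth was 2017 to 2924 UMIs, and in the other 12 libraries it was 3639 to 5816. This split, taken as the kit version and called the chemistry here, was a term in all main fits. No member barcode occurred in more than 1 library, whereas the 120 pairs of libraries shared 1385 barcodes in all.

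Several libraries stood apart. Control female 12 weeks replicate 2 had 6 members, under the minimum of 10 for a sum, and was left out of every fit, so control mice at 12 weeks were 3. In DN female 12 weeks replicate 2, 2 of 14 members held 1225 of its 1242 UMIs of Acta2, the smooth muscle actin. In DN male 6 weeks replicate 2 and control male 12 weeks replicate 1, a single member each held the renin gene Ren1 at 10 UMIs or more, and these 2 cells had 1341 of the 1400 Ren1 UMIs of all members. In control male 12 weeks replicate 1, 1 member held 2292 UMIs of the globin gene Hbb-bs. Over the 8 smooth muscle and renin markers the summed level ran from 81.0 to 1334 CPM (counts scaled to the same total per library sum) in control and from 84.6 to 20218 CPM in DN libraries, and over the 5 erythroid markers from 0 to 5883 and from 0 to 63.0 CPM.

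Markers of other kidney cells were detected in the members. All 8 podocyte, 7 mesangial, 12 proximal tubule and 12 distal tubule markers had at least 1 UMI, with medians over libraries of 176, 92.2, 1197 and 2541 CPM in control and of 162, 64.0, 331 and 2686 CPM in DN. Single genes carried much of these sums. Aqp1, which the distal tubule list includes, is a water channel gene that some endothelium also uses and averaged 2218 CPM in members. The sums of that list are thus not a measure of distal tubule RNA alone. The loop and collecting duct genes Umod and Aqp2 averaged 29.9 and 62.6 CPM. Of the podocyte markers Synpo averaged 141 CPM and Nphs1 and Wt1 17.9 and 7.5 CPM. Aqp1 was lower and Synpo higher in members with a UMI of Fbln2 in 13 of 13 libraries. DN male 12 weeks replicate 2 had the highest sum of podocyte markers, at 1797 CPM, and DN male 6 weeks replicate 2 the highest of distal tubule markers, at 5216 CPM. The 6 glomerular EC markers summed to medians of 2461 and 2232 CPM and the 7 peritubular and venous markers to 1379 and 1426 CPM. Of the immune markers 7 of 10 were detected and C1qb, Cd3e and S100a8 were at 0. Of the lymphatic EC markers 3 of 6 were detected and Lyve1, Ccl21a and Mmrn1 were at 0. Of the fibroblast markers 5 of 7 were detected and Col1a1 and Dpt were at 0. Their summed medians were 4.2 CPM in control and 5.7 CPM in DN, with the highest sum, 54.5 CPM, in DN female 12 weeks replicate 2. Of the peritubular and venous markers 6 of 7 were detected and the venous gene Ackr1 was at 0. The summed proximal tubule markers thus had a lower median in DN, with ranges of 177 to 2364 CPM in control and 246 to 2327 CPM in DN libraries. Kap led that sum, with 2481 UMIs in 63.8% of control and 486 UMIs in 26.5% of DN members. In the fits described below the 9 tested proximal tubule markers had a median log2 fold change of -0.13 over both ages (3 of 9 higher in DN) and of 0.27 at 12 weeks (5 of 9), with 0 passing, and their part in any difference below was not tested.

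Sox17 was detected in 927 members (89.5%), Gja4 in 814 (78.6%), Fbln2 in 643 (62.1%), Gja5 in 474 (45.8%) and Bmx in 395 (38.1%). Gja4 and Gja5 encode the gap junction proteins connexin 37 and connexin 40, Fbln2 encodes a matrix fibulin, and Bmx encodes a kinase of arterial endothelium. Of all members 149 had all 5 transcripts, 188 had 4, 358 had 3 and 341 had 2. Across the 15 fitted libraries, on CPM scaled by TMM factors, Sox17 was at 1258 ± 462 CPM (SD, range 613 to 2141), Fbln2 at 863 ± 319, Gja4 at 554 ± 183, Gja5 at 310 ± 97.7 and Bmx at 166 ± 52.7, and the general endothelial genes Pecam1 and Cdh5 were at 1201 ± 335 and 679 ± 81.4. These 7 genes chose the members, so their levels are given as a description, and they were left out of the tests. With the threshold at 3 marker UMIs, the 70 members with exactly 3 had Mgp at 625 CPM, Fbln5 at 316 CPM and Kdr at 401 CPM as a pool, and the 49 barcodes just outside, with 2 marker UMIs from 2 genes, had 648, 550.3 and 489 CPM.

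The label was checked on genes that the rule did not use, against glomerular ECs (4810 barcodes with Ehd3 and at least 3 UMIs over Ehd3, Plat, Emcn, Sost and Gata5) and peritubular and venous ECs (421 barcodes with Plvap) of the same libraries. The 3 gates were built to differ, so the values are a description with no test, as mean CPM over 15, 16 and 11 libraries with at least 10 cells. Of 21 arterial identity genes, 15 had their highest mean in the arterial members, as did 9 of 12 elastic fibre genes that reached 10 CPM in any of the 3 types, beside 2744 of 9383 (29.2%) of all genes outside the rule. The elastic fibre list also holds Vwf, the gene of von Willebrand factor, which is not an elastic fibre protein. Arterial members also had the highest mean for 15 of 21 actin-cytoskeleton genes that respond to the MRTF and SRF factors, and for 10 of 19 vasoactive genes. They had the highest mean for 7 of 7 smooth muscle and renin markers as well, and in DN female 12 weeks replicate 2 the actin-cytoskeleton genes Acta2, Tagln and Tpm2 were at 11035, 6406 and 3216 CPM, so the part of smooth muscle RNA in the actin-cytoskeleton count was not tested. They led in 0 of 18 interferon-responsive genes, all of which lay above the glomerular and below the peritubular mean.

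Several matrix genes were higher in arterial members. Mgp, an inhibitor of vascular calcification, was at 3353 ± 2396 CPM in arterial members, 6.6 ± 6.8 in glomerular and 11.3 ± 10.3 in peritubular ECs. Fbln5, which organises elastic fibres, was at 1025 ± 279, 8.3 ± 7.8 and 105 ± 63.1 CPM in the same order. Elastin, Eln, was at 660.3 ± 359, 86.7 ± 29.1 and 61.1 ± 49.9 CPM, and Ltbp4, which holds latent TGF-beta in elastic fibres, was at 583 ± 182, 74.8 ± 26.2 and 55.2 ± 32 CPM. For each of these 4 genes the arterial value was the higher one in 15 of 15 libraries against glomerular and in 11 of 11 against peritubular ECs. Fn1, Col8a1 and Vwf were at 240 ± 129, 71.9 ± 46 and 98.3 ± 63.8 CPM in arterial members and at 0.4 to 2 CPM on average in glomerular ECs. By contrast the basement membrane collagens Col4a1 and Col4a2 were lower in arterial members than in glomerular ECs in 15 of 15 libraries, at 373 ± 141 and 164 ± 69.9 against 686 ± 268 and 355 ± 136 CPM.

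Among ligands and receptors of arterial identity, the Notch ligands Jag1 and Jag2 were at 515 ± 153 and 217 ± 69.8 CPM in arterial members and at 18.1 ± 7 and 61.4 ± 24.3 in glomerular ECs. The chemokine Cxcl12, the guidance ligand Sema3g and the lymphangiogenic ligand Vegfc were at 335 ± 122, 600 ± 210 and 225 ± 89.1 CPM against 3.6 ± 3.9, 60.2 ± 31.7 and 1.8 ± 2. Each of these 5 was above the glomerular value in 15 of 15 libraries. The receptor Notch4 was also higher in 15 of 15 libraries, at 172 ± 40.1 against 90.4 ± 24.9 CPM, whereas Notch1 stood at 267 ± 55.1 and 267 ± 71.6. Not every gene of the list ran this way. Efnb2, an ephrin usually taken as arterial, was at 358 ± 114 CPM in arterial members and at 611 ± 229 in glomerular ECs, and Hes1, a Notch target, at 179 ± 175 against 424 ± 318. Nrp1 and the VEGF receptor Kdr were at 466 ± 193 and 131 ± 44.6 CPM against 2684 ± 643 and 2547 ± 754, and the arterial value was lower in 15 of 15 libraries for both.

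**Figure D1:**
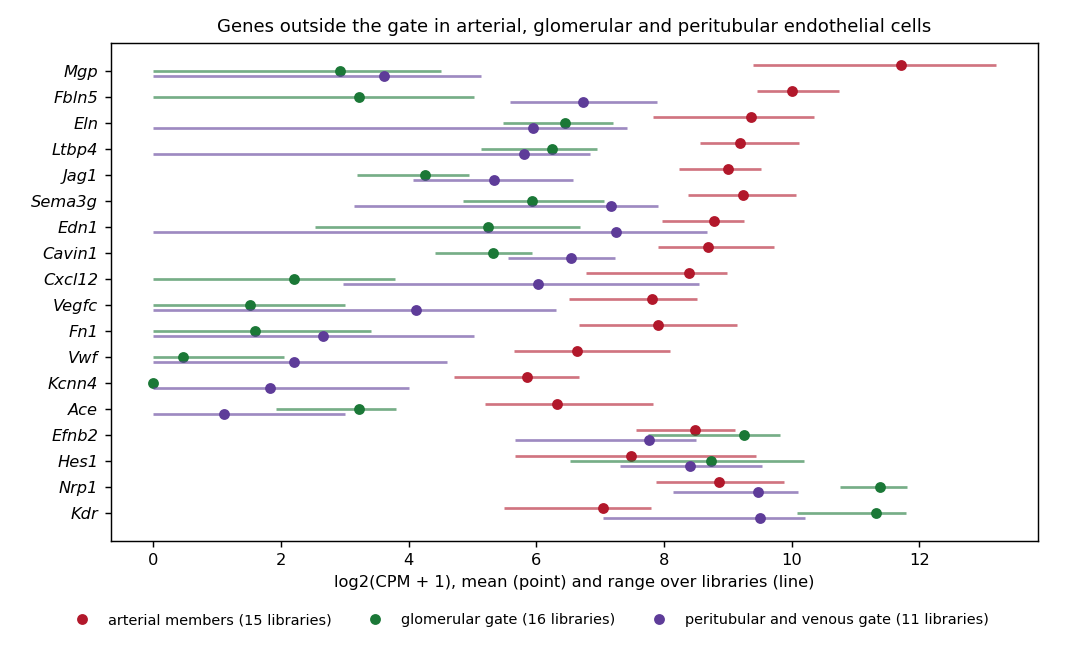
Level of 18 genes outside the gate in arterial members, glomerular ECs and peritubular and venous ECs, as log2(CPM + 1), with the mean over libraries as a point and the lowest to highest library as a line. Mgp, Fbln5 and Jag1 in arterial members lie above the ranges of both other types, while Nrp1 and Kdr lie below the glomerular range.

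Genes of vessel tone were split between the types. Edn1, which encodes the vasoconstrictor endothelin-1, was at 442 ± 94.8 CPM in arterial members, 36.8 ± 26 in glomerular and 152 ± 102 in peritubular ECs. Nos3, the endothelial nitric oxide synthase, was at 130 ± 53, 47.2 ± 14.1 and 82.8 ± 66.1 CPM, and both genes were higher than in glomerular ECs in 15 of 15 libraries. Ace, the angiotensin-converting enzyme, was at 79.3 ± 48.5 against 8.4 ± 3.5 CPM in glomerular ECs, and the channels Kcnn4 and Trpv4, which carry potassium and calcium in endothelium-dependent dilation, were at 57.1 ± 22.7 and 79.9 ± 28.4 against 0 and 6.2 ± 3.8. The endothelin receptor gene Ednrb ran the other way, at 67.6 ± 36.7 against 443 ± 319 CPM, and so did Ramp3, a partner of the adrenomedullin receptor, at 40 ± 23.7 against 336 ± 90. Of the flow-responsive genes, Klf2 differed little between the means at 2614 ± 1031, 2258 ± 841 and 2513 ± 839.9 CPM in arterial, glomerular and peritubular ECs, while the caveolar gene Cavin1 was at 412 ± 158, 38.9 ± 11.2 and 92.3 ± 34 CPM.

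The members varied among themselves along Fbln2. A UMI of it was found in 643 members, at a median depth of 4109 UMIs, and in none of the other 393, at 3307 UMIs. In the 13 libraries with at least 10 members of each kind (614 and 383 cells), sums were compared as CPM. The split was made on a gene of the rule, so it is described with no test. Of 3561 genes at 50 CPM or more over all members, 173 were higher with Fbln2 in every one of the 13 libraries and 79 were lower in every one.

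Members with Fbln2 carried most of the elastic matrix. Mgp averaged 4253 CPM with Fbln2 and 780 without, Eln 877 and 83.2, Fbln5 1274 and 348, Ltbp4 753 and 116, and Fn1 304 and 29.7, and each was higher with Fbln2 in 13 of 13 libraries. The secreted proteins Gkn3 (75 and 3 CPM) and Clu (319 and 26.5 CPM) followed the same pattern, as did Jag1 (618 and 233), Sema3g (677 and 255), Vwf (123 and 11.2), Ace (93.7 and 21.1) and Kcnn4 (73.6 and 21.8). Edn1 did not split this way, at 440 and 401 CPM with 8 of 13 libraries higher with Fbln2, nor did the sphingosine receptor gene S1pr1, at 568 and 547 CPM with 5 of 13.

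Members without Fbln2 had higher levels of Fabp4, Gpihbp1 and Kdr, and also of Aqp1, Akr1b3 and Cryab. Aqp1 was at 6260 CPM without and 690 with Fbln2, Akr1b3 at 2329 and 153, and Cryab at 346 and 33.9. Each of these 3 was higher without Fbln2 in 13 of 13 libraries. Whether all members without Fbln2 were arterial or arteriolar ECs was not tested. Fabp4, a fatty acid binding protein, was at 4325 CPM without and 659 with Fbln2, Gpihbp1, which anchors lipoprotein lipase on capillaries, at 283 and 23.7, Plat at 1231 and 192, Emcn at 1210 and 468, and Kdr at 273 and 70.6, each higher without Fbln2 in 13 of 13 libraries. The nuclear receptor gene Pparg was at 93.2 and 16.3 CPM (12 of 13 libraries), Nrp1 at 675 and 366 (11 of 13), and Cxcr4 at 41.3 and 11.9 (11 of 13). Cd74 and H2-Ab1 of the MHC class II pathway were at 236 and 86.9 CPM without Fbln2 against 22 and 16.5 with it. Not all glomerular EC markers ran this way, since Sost was at 81.6 CPM with Fbln2 and 20.0 without (higher with it in 13 of 13 libraries) and Tspan8 at 1239 and 851 (10 of 13). Of the peritubular and venous markers, Igfbp7 was at 2607 CPM without Fbln2 and 375 with it, and Rsad2 at 489 and 133, each higher without in 13 of 13 libraries. Nr2f2 was at 44.1 and 25.5 CPM (10 of 13), whereas Ephb4 was at 54.5 and 56.4 CPM (6 of 13). Levels of Fabp4 and Emcn in peritubular ECs were 8836 ± 3604 and 1787 ± 269 CPM.

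**Figure D2:**
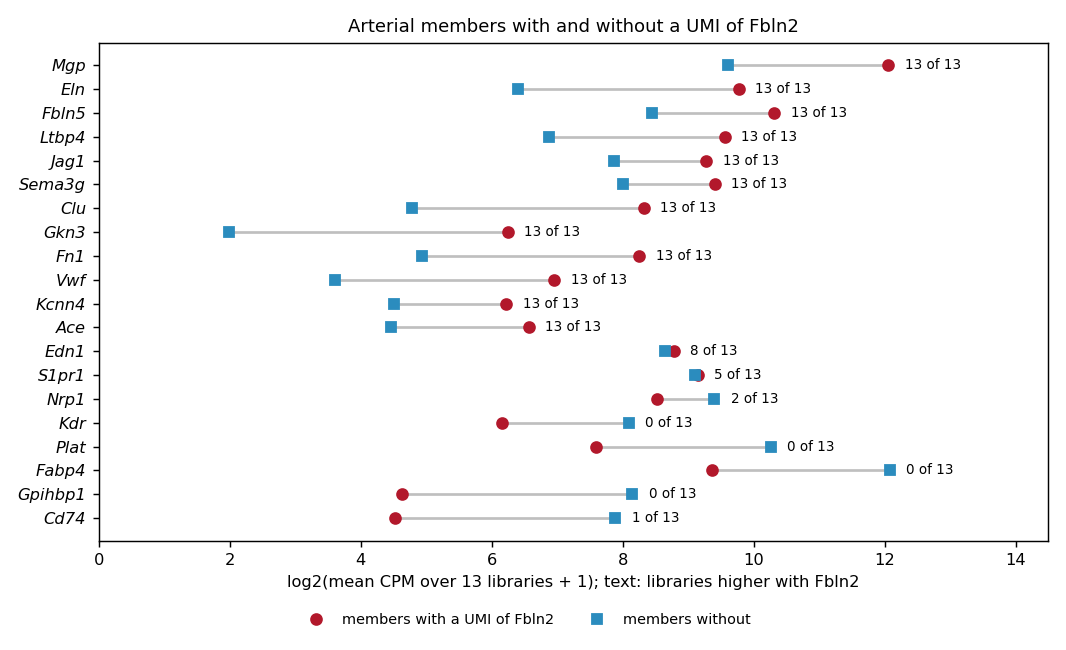
Mean level over 13 libraries in members with (circle) and without (square) a UMI of Fbln2, as log2(CPM + 1), with the number of libraries in which the level was higher with Fbln2. Elastic matrix genes such as Mgp and Eln were higher with Fbln2 in 13 of 13 libraries, and Kdr, Fabp4 and Gpihbp1 in 0 of 13.

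The share of arterial members asked whether the suspensions of DN mice held more or fewer of these cells. Shares were 0.523% to 4.88% in DN and 0.201% to 3.47% in control libraries. The highest was DN female 6 weeks replicate 1 (4.88%, exact 95% interval 4.03 to 5.86) and the lowest control female 12 weeks replicate 2 (0.201%, 0.0738 to 0.437), where the intervals cover counting error only. The mean was 2.39% ± 1.55 in DN and 1.80% ± 1.22 in control mice (SD, n = 8 each), a difference of 0.586 percentage points that did not pass an exact two-sided permutation test within sex and age (p = 0.423, smallest possible 0.00154). With mice of the same sex, age and replicate number taken as pairs, the share was higher in DN in 7 of 8 pairs and an exact sign-flip permutation test gave p = 0.0156. With every barcode thinned to 1000 UMIs, a combination with the pairing that was chosen after seeing the data, the share was higher in DN in 5 of 8 pairs, and the difference of 0.199 percentage points did not pass (exact sign-flip permutation p = 0.141). Control male 6 weeks replicate 2 had 3770 of its 5803 barcodes within the limits under 1000 UMIs, against 79 to 974 in the other libraries. In its pair the share was 0.655% in control and 1.68% in DN, and 1.43% and 1.27% with thinning. The means were 2.85% ± 1.504 and 1.98% ± 1.25 at 6 weeks (exact permutation p = 0.429, n = 4 each) and 1.92% ± 1.67 and 1.62% ± 1.35 at 12 weeks (exact permutation p = 0.771, n = 4 each). As a share of endothelial barcodes the means were 13.1% ± 3.26 and 10.8% ± 3.48 (exact permutation p = 0.215, n = 8 each).

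**Figure D3:**
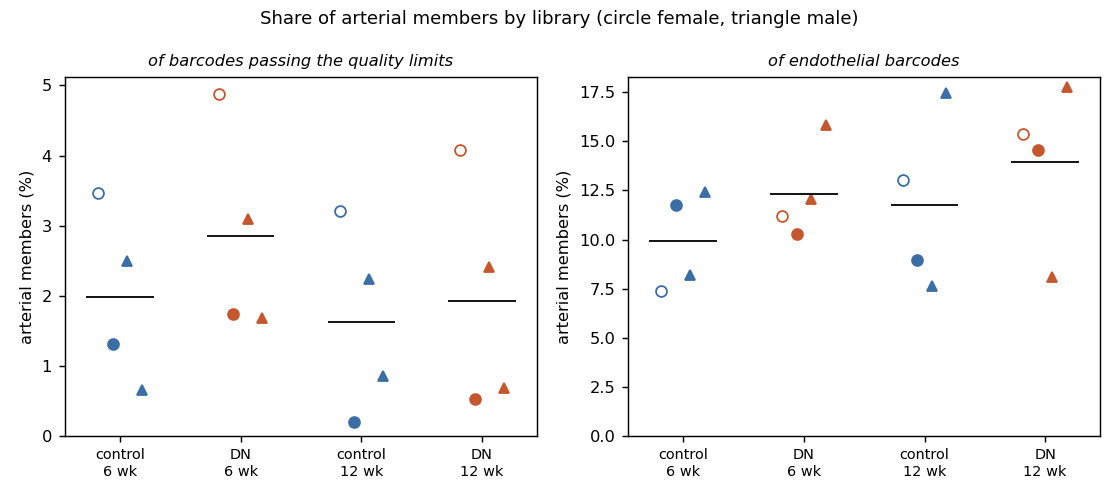
Share of arterial members by library in percent, of all barcodes within the gene and mitochondrial limits (left) and of endothelial barcodes (right). Circles are females, triangles males, open symbols the 4 libraries of the smaller barcode set and bars the means of 4 libraries; the groups overlap in both panels, between 0.201% and 4.88% on the left.

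Gene expression was compared between DN and control mice on counts summed over the members of each library, in 8 DN and 7 control libraries, with edgeR's quasi-likelihood test on 6301 genes. Over both ages 1 gene passed at an adjusted p of 0.05, which is 0.0159% of the genes tested, with 291 genes at an unadjusted p under 0.05. At 6 weeks and at 12 weeks alone, 0 genes passed (0% each), with 167 and 249 at an unadjusted p under 0.05. With DESeq2 on the same counts, 3, 1 and 0 genes passed over both ages, at 6 and at 12 weeks, and with the replicate numbers as a block 14, 1 and 9. The block fit kept complete pairs only, so it also left out DN female 12 weeks replicate 2. It had no separate chemistry term, as both mice of each pair were of the same barcode set and the blocks took up that difference. Since a library was left out, its calls differ from the main ones by more than the pairing. In 0 of 6301 genes did all 8 DN libraries lie on one side of all 7 control libraries. The median standard error of a log2 fold change was 0.22 over both ages, 0.28 at 6 and 0.33 at 12 weeks.

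Gpihbp1 (chromosome 15, 75596628 to 75599481, plus strand, GRCm38) was the gene that rose. It encodes the endothelial protein that brings lipoprotein lipase to the capillary lumen. Its lowest, median and highest levels were 25.5, 34.3 and 169 CPM in control and 17.8, 115 and 229 CPM in DN libraries. Control female 6 weeks replicate 1 at 169 CPM and DN female 12 weeks replicate 2 at 17.8 CPM, which had 14 members, made the groups overlap. The log2 fold change over both ages was 1.69 ± 0.26 (SE, adjusted p = 0.0317), with 1.69 ± 0.31 at 6 weeks (adjusted p = 0.299) and 1.69 ± 0.41 at 12 weeks (adjusted p = 0.750). The adjusted p over both ages was 0.00528 with the replicate block, 1.8e-04 with DESeq2, 0.236 with the stricter gate and 0.912 without the chemistry term.

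The call for Gpihbp1 also depended on single libraries. It was lost without control female 6 weeks replicate 2 (adjusted p = 0.0680), control female 12 weeks replicate 1 (0.195), control male 6 weeks replicates 1 (0.131) or 2 (0.123), control male 12 weeks replicate 1 (0.164), DN female 6 weeks replicate 2 (0.0927), DN female 12 weeks replicate 1 (0.119) or DN male 12 weeks replicates 1 (0.330) or 2 (0.0619), with log2 fold changes between 1.51 and 1.70. Without DN female 12 weeks replicate 2, 3 genes passed over both ages, Sost and Limch1 beside Gpihbp1. In the same libraries the gene was also higher in DN among glomerular ECs, at 839 ± 164 against 287 ± 77.2 CPM (SD, n = 8 and 7), and in all barcodes outside the gate, at 92.8 ± 71.6 against 42.2 ± 40.9 CPM. Within the arterial members, most of it was in cells without Fbln2, at 447 ± 211 CPM in DN (6 libraries) and 142 ± 150 in control (7 libraries), whereas members with Fbln2 had 33.7 ± 28.1 and 15.1 ± 8.6 CPM. The share of members with Fbln2 was 66.1% ± 12.9 in DN and 62.8% ± 7.35 in control libraries. The 5 tested glomerular EC markers, which include Sost, had a median log2 fold change of 0.20 over both ages (4 of 5 higher in DN), of -0.07 at 6 weeks (2 of 5) and of 0.51 at 12 weeks (5 of 5), with 0 passing. The part of transcripts from other cells in the difference in Gpihbp1 was not tested.

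The next genes by p did not pass over both ages. Sost, which encodes the Wnt antagonist sclerostin, ran from 9.1 over a median of 21.5 to 78 CPM in control and from 49.3 over 106 to 146 CPM in DN libraries. Its overlap came from control female 6 weeks replicate 2 at 78 CPM, and its log2 fold change was 1.78 ± 0.31 (adjusted p = 0.0886). The replicate block and DESeq2 called it (adjusted p 0.00985 and 0.00178). Sost is a marker of glomerular ECs and was used to choose them, so its level there is not given. In arterial members it was at 133 ± 41.8 and 37.7 ± 33.6 CPM with Fbln2 and at 39.6 ± 30.9 and 3.2 ± 5.8 CPM without it, and outside the gate at 41.6 ± 21 and 13.8 ± 7.2 CPM.

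Limch1, which encodes an activator of non-muscle myosin, ran from 237 over 266 to 350 CPM in control and from 105 over 167 to 248.8 CPM in DN libraries, so that only DN female 12 weeks replicate 2 reached the control range (log2 fold change -0.79 ± 0.16, adjusted p = 0.231). Mllt3, a chromatin reader of the super elongation complex, was at 182 ± 48.2 CPM in control and 110 ± 28.2 in DN (-0.72 ± 0.14, adjusted p = 0.231). The class I gene H2-Q4 was at 109 ± 98 and 51.9 ± 36.4 CPM (-0.90 ± 0.19, adjusted p = 0.243), and the lipogenic gene Thrsp at 31.7 ± 25.5 and 63.9 ± 25 CPM (1.14 ± 0.26, adjusted p = 0.387). Sgk1, a kinase induced by glucocorticoids and mineralocorticoids, was at 345 ± 84.4 and 510 ± 123 CPM (0.66 ± 0.16, adjusted p = 0.546), and Fam81a at 48.3 ± 15.6 and 27.9 ± 13.9 CPM (-0.93 ± 0.23, adjusted p = 0.546). With the replicate block Limch1 (adjusted p = 0.00528), H2-Q4 (0.00985), Sgk1 (0.0196) and the taurine transporter gene Slc6a6 (0.00985, log2 fold change 0.68) passed as well.

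At 6 weeks the smallest p after Gpihbp1 and Sost (1.71 ± 0.40) were those of Serpine2, a protease inhibitor, at 85.8 CPM in control and 187 in DN (1.06 ± 0.26), Ugt2b38 (-3.23 ± 0.79), the TWEAK receptor gene Tnfrsf12a (1.51 ± 0.40), Limch1 (-0.78 ± 0.21), the clock gene Per1 (1.34 ± 0.37) and Ren1 (7.89 ± 2.20). None of these passed (adjusted p = 1.00 for each but Gpihbp1), and with the replicate block Ren1 did (7.55, adjusted p = 0.0154), which had 1341 of its 1400 UMIs in 2 cells. At 12 weeks they were those of Mllt3 at 209 CPM in control and 93.3 in DN (-1.08 ± 0.22, adjusted p = 0.416), the interferon-induced Ifi27l2a at 725 and 217 CPM (-1.57 ± 0.32, adjusted p = 0.416), H2-Q4, AW112010 (-1.29 ± 0.29, and -1.18 with an adjusted p of 0.0290 with the replicate block), the cyclin gene Ccnd2 (-0.67 ± 0.16), Gpihbp1, Azin1 (0.88 ± 0.23) and Ifi44l (-2.31 ± 0.60). With 1 library left out, 1 gene passed at 6 weeks without control or DN female 6 weeks replicate 1, and 1 at 12 weeks without control male 12 weeks replicate 1 or 2.

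**Figure D4:**
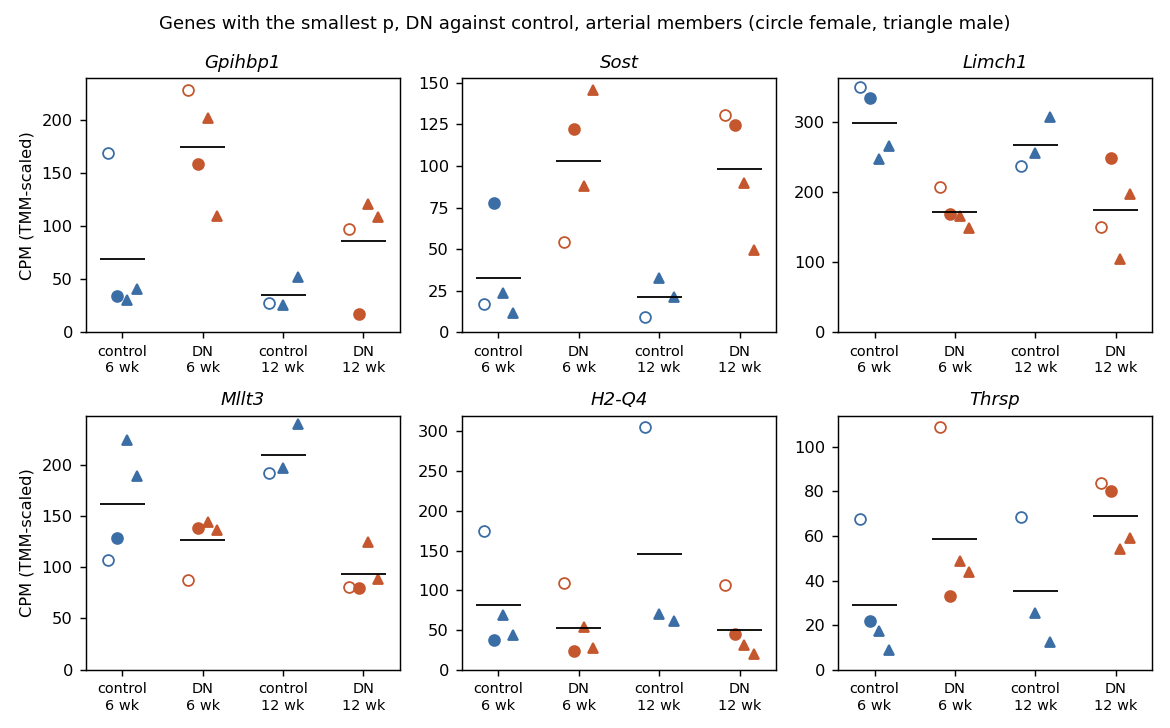
TMM-scaled CPM of 6 genes with the smallest p over both ages in the arterial members of 15 libraries, by genotype and age. Circles are females, triangles males, open symbols the smaller barcode set and bars the group means; Gpihbp1 was the gene that passed and its DN (17.8 to 229 CPM) and control (25.5 to 169 CPM) libraries overlap.

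The gene lists were read by counts and medians beside those of all 6301 genes, whose median log2 fold change was -0.00 over both ages. Arterial identity was described by 20 tested genes, of which 0 passed and 7 were higher in DN, at a median of -0.07. Within it, Dll4 and Vegfc had the lowest p after Slc6a6, at log2 fold changes of -0.47 ± 0.16 and -0.58 ± 0.22 (adjusted p = 0.928 and 0.995), while Jag1, Notch1 and Notch4 were at -0.05 ± 0.17, -0.18 ± 0.13 and 0.00 ± 0.21. Of 14 tested vasoactive genes 0 passed, at a median of 0.12. Edn1 ran from 254 to 561 CPM in control and from 349 to 599.9 in DN libraries (0.12 ± 0.15), and Nos3 from 59.3 to 225 and from 63.5 to 199 CPM (-0.06 ± 0.17). Ednrb had the lowest p of the list, at -0.54 ± 0.23.

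Of 11 tested elastic fibre genes 0 passed and 8 were higher in DN, with a median of 0.50. Leaving out members with 10 or more UMIs of Acta2, Tagln, Myh11 and Ren1, an alternative added after the data were seen, gave a median of 0.14 with 7 of 10 higher. Eln was at 0.74 ± 0.23 (adjusted p = 0.848), Col8a1 at 0.65 ± 0.24, Bgn at 0.66 ± 0.34, Vwf at 0.51 ± 0.23 and Mgp at 0.38 ± 0.36, while the fibrillin gene Fbn1 was at -0.62 ± 0.18 (adjusted p = 0.804). The 11 genes of the list thus include Vwf, which is not an elastic fibre gene. The 16 BMP and TGF-beta genes had a median of 0.20 with 12 higher in DN and 0 passing, among them the co-receptor gene Eng at 0.51 ± 0.17 (0.48 with an adjusted p of 0.0436 with the replicate block) and the inhibitory Smad6 at 0.56 ± 0.22. Of 12 lipid genes, Gpihbp1 was the 1 that passed, and the list's median was 0.10. Medians were 0.06 for 14 flow-responsive, 0.10 for 17 glucose and insulin, -0.03 for 13 oxidative stress, 0.15 for 13 basement membrane, -0.06 for 11 adhesion, 0.00 for 11 angiogenic, -0.00 for 19 MRTF and SRF, -0.06 for 9 YAP and 0.13 for 17 immediate early genes, with 0 passing in each. Some of these medians had opposite signs at the 2 ages, a difference that was not tested for the lists. The actin-cytoskeleton genes that respond to MRTF and SRF had a median of 0.39 at 6 weeks (13 of 19 higher in DN) and of -0.07 at 12 weeks (5 of 19), beside 1.22 and -2.66 for the 6 tested smooth muscle and renin markers (Acta2, Tagln and Cnn1 are in both lists). At 12 weeks 0 of these 6 markers, which include Acta2, were higher in DN in the fit. Acta2 itself was at 11040 CPM in DN female 12 weeks replicate 2 and at most at 521.4 CPM in the other fitted libraries. The fitted sign thus ran against these levels. That DN library was the only fitted female of 12 weeks in the larger barcode set, and the part of the chemistry term in the sign was not tested. Without the members holding 10 or more UMIs of Acta2, Tagln, Myh11 and Ren1, the actin-cytoskeleton medians were -0.01 (7 of 15) and 0.07 (10 of 15). The immediate early genes had medians of -0.06 (5 of 17) and 0.45 (14 of 17).

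Antigen presentation genes of the MHC list had a negative median at both ages, and 0 passed. At 12 weeks 0 of 15 tested MHC genes were higher in DN, with a median log2 fold change of -0.71, 7 at an unadjusted p under 0.05 and 0 passing. At 6 weeks 6 of 15 were higher, at a median of -0.08. At 12 weeks H2-Q4 was at -1.28 ± 0.29 (adjusted p = 0.569), H2-K1 at -0.91 ± 0.26, B2m at -0.69 ± 0.21 and the immunoproteasome gene Psmb9 at -0.91 ± 0.36. In control female 12 weeks replicate 1 and the 2 control males of this age, B2m was at 4062, 1046 and 1035 CPM, H2-Q4 at 305.5, 70.4 and 61.4 CPM, and the class II chaperone gene Cd74 at 438, 33.0 and 111 CPM, whereas H2-K1 was at 1313, 1977 and 1733 CPM. The female library was thus the highest of the 3 for B2m, H2-Q4 and Cd74, and its summed immune markers, at 411 CPM, were above the control median of 35.7 CPM, a list to which Cd74 belongs. It was also the only one of the 3 in the smaller barcode set. Without TMM scaling, the 4 libraries of that set had B2m at 1990 to 3735 CPM and H2-Q4 at 98.9 to 281 CPM. The highest of the other fitted libraries were at 1463.5 and 73.0 CPM. In glomerular ECs the same 4 were highest as well, at 1995 to 2252 and 73.2 to 94.2 CPM. Without control female 12 weeks replicate 1 no control female of 12 weeks was left in the fit, so the effect at that age came from males. The median of the MHC list at 12 weeks was then -0.37 with 3 of 15 higher. The parts of immune cell RNA and of the barcode set were not tested. The interferon-responsive genes had 15 of 18 higher in DN at 6 weeks, at a median of 0.25, and 2 of 18 higher at 12 weeks, at a median of -0.49, again with 0 passing at either age. The difference between the ages was tested gene by gene and 0 of 6301 genes passed (0%), with 167 at an unadjusted p under 0.05 and with 0 by DESeq2. Without control female 6 weeks replicate 2 or control male 12 weeks replicate 2, 1 gene passed. The 5 smallest p were those of Ifi27l2a (-1.85 ± 0.43), Plat (1.73 ± 0.40), Ren1, Ifit3b (-2.35 ± 0.60) and Etnk1 (-1.20 ± 0.32), of which the replicate block called Plat (adjusted p = 0.0451) and Ren1, which had most of its UMIs in 2 cells. With the block at 12 weeks, H2-Q4 (-1.39, adjusted p = 0.0290) and H2-K1 (-0.99, adjusted p = 0.0318) passed.

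The DN effect in arterial members was set against that in glomerular ECs of the same 15 mice, in 1 fit with a term for each library. The genes of both gates were left out. Of 7819 genes, 18 differed, which is 0.23%, with 7 higher and 11 lower in arterial members relative to glomerular ECs and 511 at an unadjusted p under 0.05. DESeq2 called 8 genes, all among the 18, and the replicate block called 66, which included all 18. The block fit again left out DN female 12 weeks replicate 2. The count was 6 without control male 12 weeks replicate 1, 9 without DN female 12 weeks replicate 1 or DN male 6 weeks replicate 1, and 10 without control male 6 weeks replicate 2. It was 11 without control female 12 weeks replicate 1, DN female 6 weeks replicate 1, DN male 6 weeks replicate 2, or DN male 12 weeks replicate 1 or 2. Of 14 tested MHC genes 4 were called, all with the lower effect in arterial members, and the list's median was -0.54 beside -0.01 over all genes. The 4 were H2-K1, H2-D1, H2-Q4 and B2m, which make MHC class I heavy chains and their common light chain. Of 18 interferon-responsive genes 2 were called, Bst2 (tetherin, which holds budding virus at the cell) and Ly6c1, both lower, at a list median of -0.39. H2-T22, also called, was named after its value was seen. Of 8 podocyte markers 3 were tested, and 3 of 3 had the higher effect in arterial members, at a median of 1.05 with 0 passing, among them Cdkn1c at 2.25 ± 0.59 (adjusted p = 0.177) and Synpo at 1.05 ± 0.53. The part of podocyte RNA in the calls on the higher side was not tested.

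H2-K1 ran from 841 over a median of 1580 to 2051 CPM in control and from 519 over 1046 to 2344 CPM in DN arterial members. In glomerular ECs of these libraries it ran from 462 over 594 to 1030 CPM in control and from 416 over 744 to 2677 CPM in DN. The highest value in both cell types was DN male 6 weeks replicate 1. The difference of the 2 effects was -0.90 ± 0.13 on the log2 scale (adjusted p = 0.0033), and it passed in 22 of 22 alternatives run for it. B2m was at 1759 ± 1063 and 1213 ± 549 CPM in control and DN arterial members and at 1199 ± 719 and 1366 ± 540 CPM in glomerular ECs (difference -0.73 ± 0.12, adjusted p = 0.00722), and it was lost without control female 12 weeks replicate 1 (adjusted p = 0.0570). The differences of H2-D1, H2-Q4 and Bst2 were -0.51 ± 0.11, -1.12 ± 0.22 and -0.63 ± 0.13 (adjusted p = 0.0474, 0.0257 and 0.0474), and without control female 12 weeks replicate 1 their adjusted p was 0.327, 0.304 and 0.445. Without that library no control female of 12 weeks was left, so the effect at that age came from males. H2-D1 passed in 6, H2-Q4 in 14 and Bst2 in 7 of 22 alternatives. Ly6c1 was at -0.44 ± 0.09 (adjusted p = 0.0428) and passed in 8 of 22, which included 4 of the 15 fits that left out 1 library, with an adjusted p of up to 0.255 without control female 12 weeks replicate 1. The class I heavy chain genes are near-identical copies of each other, so UMIs may have been assigned to the wrong one.

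The 200 bases before the RefSeq start site (build GRCm38.p6, 5′ to 3′ on the gene's strand) are shown for the 3 called class I heavy chain genes of the MHC list, because these genes had lower DN effects together and are copies of each other. Capitals mark the longest run that H2-K1 and H2-D1 share within these windows.
H2-K1, chr17:34000348-34000547, minus strand: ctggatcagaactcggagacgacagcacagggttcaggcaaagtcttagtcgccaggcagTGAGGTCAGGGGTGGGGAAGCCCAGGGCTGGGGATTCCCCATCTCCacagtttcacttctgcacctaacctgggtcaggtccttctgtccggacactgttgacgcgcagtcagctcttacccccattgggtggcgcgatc
H2-D1, chr17:35262894-35263093, plus strand: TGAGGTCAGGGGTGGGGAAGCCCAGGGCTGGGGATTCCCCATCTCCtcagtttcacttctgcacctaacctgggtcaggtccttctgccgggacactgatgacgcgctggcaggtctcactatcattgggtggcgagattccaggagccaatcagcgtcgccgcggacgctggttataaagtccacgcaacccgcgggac
H2-Q4, chr17:35379417-35379616, plus strand: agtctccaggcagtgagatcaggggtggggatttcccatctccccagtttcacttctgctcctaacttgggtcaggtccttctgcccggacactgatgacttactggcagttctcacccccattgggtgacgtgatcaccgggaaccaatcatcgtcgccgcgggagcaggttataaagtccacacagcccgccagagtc
The shared run was 46 bases long within the windows, and 2 of 27025 RefSeq windows of 200 bases held it on the gene's strand, namely these 2. It begins at the first base of the H2-D1 window, so the likeness may extend further upstream. In H2-Q4 the longest run shared with H2-K1 was 17 bases. Likeness of these windows describes the copies and is no evidence of shared control.

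Other genes differed between the cell types in their DN effect. Plac8 was at 163 ± 62.5 and 246 ± 143 CPM in control and DN arterial members and at 125 ± 53.3 and 70.0 ± 30.2 CPM in glomerular ECs (difference 1.43 ± 0.26, adjusted p = 0.0175). Calca, the gene of calcitonin and the vasodilator CGRP, was at 62.3 ± 45.2 and 89.7 ± 55.7 CPM and at 74.6 ± 58.8 and 13.5 ± 8 CPM (3.26 ± 0.48, adjusted p = 0.0033). The proteoglycan gene Bgn was at 205 ± 101 and 424 ± 320 CPM in arterial members and at 42 ± 20.8 and 217 ± 113 CPM in glomerular ECs (-1.62 ± 0.30, adjusted p = 0.0182). The protease gene Adamts1 was at 118 ± 53.1 and 112 ± 46.7 against 151 ± 45.3 and 334 ± 118 CPM (-1.08 ± 0.22, adjusted p = 0.0449). For each of these 4 genes the means thus lay further apart, as a ratio, in glomerular ECs. Bgn passed in 17 and Adamts1 in 10 of 22 alternatives. Without DN male 12 weeks replicate 1 the adjusted p of Plac8 and Calca was 0.0612 for both, and without DN male 6 weeks replicate 1 that of Plac8 was 0.0549.

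**Figure D5:**
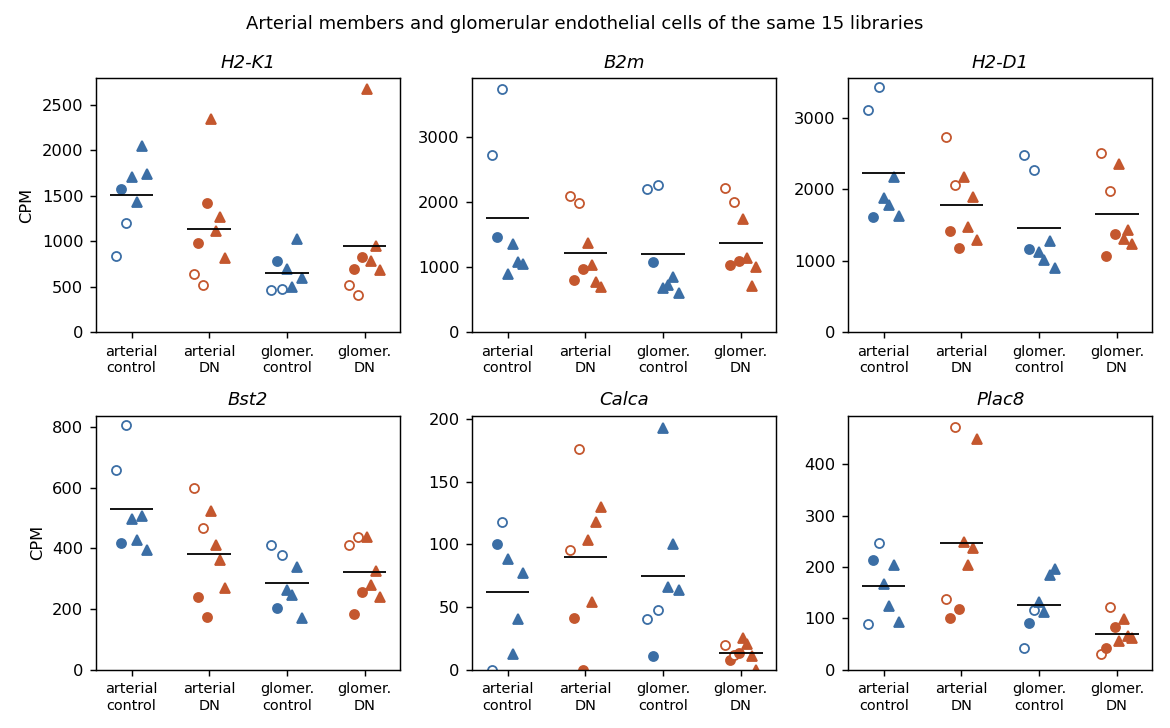
CPM of 6 genes in arterial members and in glomerular ECs of the same 15 libraries, 7 control and 8 DN. Circles are females, triangles males, open symbols the smaller barcode set and bars the means; for H2-K1 the arterial mean is 1510 CPM in control and 1139 in DN while the glomerular mean is 650 and 945 CPM.

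Age was compared over both genotypes, in 8 libraries at 6 and 7 at 12 weeks. Of 6301 genes 0 passed (0%), with 378 at an unadjusted p under 0.05 and 4 by DESeq2, which were Cdkn1a, Tinagl1, S100a10 and Gm10076. Without DN male 6 weeks replicate 2, 2 genes passed, and without DN female 12 weeks replicate 2, 1 gene. Cdkn1a, the cell cycle inhibitor p21, had the smallest p. It ran from 115 to 1632 CPM at 6 weeks and from 55.3 to 283 CPM at 12 weeks, with the 2 highest values in replicate 1 of the control and the DN females at 6 weeks, which both belong to the smaller barcode set (log2 fold change -1.76 ± 0.32, adjusted p = 0.204). Tinagl1, a matricellular protein gene of vessel walls, was at 1289 ± 231 CPM at 6 and 814 ± 209 CPM at 12 weeks (-0.69 ± 0.15, adjusted p = 0.286). Gstp1, Rnf19a and the anti-apoptotic gene Bcl2l1 were at -1.71 ± 0.35, -0.79 ± 0.18 and -0.89 ± 0.21, Gm8797 and Gm10076 at 0.99 ± 0.24 and -1.67 ± 0.36, and Myl9 at 2.79 ± 0.56. Myl9 was at 3323 CPM in DN female 12 weeks replicate 2 and at most at 224 CPM elsewhere, and the 6 tested smooth muscle and renin markers had a median of 1.77 with 6 of 6 higher at 12 weeks. The vasoactive list had a median of -0.10 with 3 of 14 genes higher at 12 weeks and 0 passing, with Edn1 at 0.40 ± 0.16 and Nos3 at -0.39 ± 0.18. The 11 elastic fibre genes had a median of 0.04 with 7 higher at 12 weeks and 0 passing, and Eln was at -0.83 ± 0.22. Without DN female 12 weeks replicate 2 the median of the elastic fibre list was -0.18 with 2 of 10 higher.

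Males and females differed in 13 of 6301 genes (0.206%), 4 of them on the X or Y chromosome, with 524 at an unadjusted p under 0.05. The autosomal calls were led by smooth muscle genes, all lower in males, namely Mustn1, Acta2, Palld, Myl9, Tpm2, Tagln and Myh11. Acta2 was at 11035 CPM in DN female 12 weeks replicate 2, which is the library where 2 members held nearly all of it, and at 65.3 to 521 CPM in the other female libraries against 70.9 to 462 CPM in males. Its log2 fold change was -3.40 ± 0.53 (adjusted p = 0.00592), and without that library it was -1.58 (adjusted p = 0.619). It was also lost without DN male 12 weeks replicate 1 (-3.31, adjusted p = 0.0704). The number of called genes was 3 and 5 without these libraries, 8 without DN female 6 weeks replicate 2 and 23 without control male 12 weeks replicate 2. Leaving out the 56 members with 10 or more UMIs of Acta2, Tagln, Myh11 and Ren1, an alternative added after the data were seen, gave -0.47 (adjusted p = 0.832) and 4 called genes in place of 13. All 4 libraries of the smaller barcode set were female, so sex and chemistry were partly confounded. Without the chemistry term 35 genes were called for sex, of which 4 were among the 13. The DN effect differed between the sexes in 0 of 6301 genes (0%, 180 at an unadjusted p under 0.05, 0 by DESeq2), and the smallest p were those of Cyp4b1 (-1.97 ± 0.40), Prom1 (1.48 ± 0.35), H2-Aa (4.40 ± 1.08), Zfhx3 (-1.71 ± 0.43) and Sfxn1 (-2.36 ± 0.59), as the effect in males minus that in females.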

How the data were processed

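The deposited files hold raw UMI counts per gene and barcode for 16 libraries of kidney cell suspensions, which the authors made with Cell Ranger 3.0.2 (submitters' processing notes) on mm10. From them, members were picked by the marker rule, and their counts were summed per library, since cells of 1 mouse are not replicates. The study itself tested single cells. Libraries with at least 10 members (15 of 16) were fitted with edgeR 4.0.16 (quasi-likelihood, TMM factors, filterByExpr) in R 4.3.3, with sex and genotype within age and the barcode set as terms, leaving out the 12 genes of the rule, and with p adjusted by Benjamini-Hochberg over all genes tested at a threshold of 0.05. The SE is the log2 fold change divided by the root of the F value. DESeq2 1.42.0 was an alternative. CPM scales each library's sum to the same total. The kit version of a library is not given in the sources used here, so the barcode set stood for it. Doublets were not called. Barcodes with excluded markers were left out. The main edgeR fit was tested on simulated sums with known fold changes, for the comparison over both ages.

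The members and gene lists were chosen with earlier results of these data known. Genes were named by p: up to 8 for genotype and age, up to 5 for differences between ages, sexes or cell types, with the called or most abundant members of each list and any member of the arterial identity and vasoactive lists. Genes named outside this rule were chosen after their values were seen, and 1 gene that the rule names is not reported here. Of 31053 gene identifiers 31011 were in the annotation used for coordinates. Mice of the same sex, age and replicate number deviated together from their group means (correlation over 6301 genes 0.522 for females and 0.238 for males at 6 weeks and 0.148 for males at 12 weeks), so a fit with replicate number as a block was an alternative. In females replicate 1 was the smaller barcode set in both genotypes, so pairing and chemistry cannot be told apart in the female value. Replicates of every group differed by more than sampling noise (lowest chi-square over its degrees of freedom 87.8). All counting intervals cover counting error only.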

Additional observations from a re-analysis of the deposited data

Results flagged for a closer look

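Single libraries stood far from the other 3 of their genotype and age for 5 genes, as levels in CPM. Gpihbp1 was at 169.4 and Slc6a6 at 756.5 in control female 6 weeks replicate 1. Mllt3 was at 87.13 and Acta2 at 65.35 in DN female 6 weeks replicate 1. Acta2 was at 521.4 in control female 6 weeks replicate 2 and at 11040 in DN female 12 weeks replicate 2, and Ren1 was at 2102 in DN male 6 weeks replicate 2. These are 7 of 79 groups of 4 libraries examined, where chance flags about 1 in 20, or 3.95. That rate is approximate, since each genotype and age held both sexes and 1 library of the smaller barcode set. Control and DN female 6 weeks replicate 1 belong to that set, and the part of chemistry or sex in these flags was not tested.

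The DN effect differed between arterial members and glomerular ECs of the same mice, by the test of the difference itself, in 10 genes named for this comparison, besides H2-T22 (-0.96) and Palld (2.45), which were named otherwise. On the log2 scale, as arterial minus glomerular, the difference was -0.8951 for H2-K1, -0.7263 for B2m, -0.5102 for H2-D1, -1.116 for H2-Q4, -0.6332 for Bst2 and -0.4405 for Ly6c1. It was -1.616 for Bgn and -1.078 for Adamts1, and 3.255 for Calca and 1.428 for Plac8.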

How the results depend on the processing

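Without the filter on low counts, the number of genes called was 26 at 6 weeks, 48 at 12 weeks, 50 over both ages, 23 for the difference between ages, 9 for that between sexes, 75 for age, 98 for sex and 91 for arterial against glomerular DN effects. DESeq2 called 1 gene at 6 weeks, 3 over both ages, 4 for age and 8 between cell types. The replicate block pairs mice of the same number, and its fits left out DN female 12 weeks replicate 2. The blocks stood in for the chemistry term, as both mice of each pair were of the same barcode set. With the replicate block 1 gene was called at 6 weeks, 9 at 12 weeks, 14 over both ages, 3 between ages and 66 between cell types. The difference in share (0.586 percentage points), taken over all 8 pairs, passed. With the block it also passed as a share of endothelial barcodes (2.298), with the stricter gate (0.351), the looser gate (0.609) and up to 50% mitochondrial UMIs (0.372), combinations chosen after seeing the data, but not with barcodes thinned to 1000 UMIs (0.199). Without members holding mixed markers 1, 2, 1 and 2 genes were called at 6 weeks, over both ages, for age and for sex. DN female 12 weeks replicate 2 then had 7 members, under the minimum of 10, and was out of the fit. Without the chemistry term 0 genes were called over both ages and 35 for sex, and with the stricter gate 0 and 4. With at least 20 members per library 3 were called over both ages, 2 for age and 3 for sex. That setting left out DN female 12 weeks replicate 2 (14 members) and DN male 12 weeks replicate 2 (19 members). With the larger barcode set alone, chosen after seeing the data, 1 was called for age, and with few smooth muscle and renin UMIs, also chosen then, 3 over both ages, 1 for age and 4 for sex.

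Leaving out 1 library gave 0 to 1 genes at 6 weeks, at 12 weeks and between ages, 0 to 3 over both ages, 0 to 0 between sexes, 0 to 2 for age, 3 to 23 for sex and 6 to 26 between cell types, and a difference in share of 0.229 to 0.852. The sex effect on Acta2 turned to 0.40 without members holding mixed markers, a setting that also left DN female 12 weeks replicate 2 out of the fit. The cause of the change was not tested. The difference between sexes could not be fitted without control female 12 weeks replicate 1 or in the larger barcode set alone, age and sex had no fit with the replicate block, and the comparison of cell types was not run with the looser gate, without mixed markers, with at least 20 members or in the larger set. Every fit without control female 12 weeks replicate 1 had no control female of that age, so its DN effect at 12 weeks came from males. Few members per library limit what these sums can show.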
